A study of Mus musculus with 22 samples.

Results

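The homeostatic astrocyte genes are 10 genes that resting astrocytes of the central nervous system use for their everyday work. They were chosen by name, by a rule that uses no measured value but with earlier results of these data known, and comprise the water channel Aqp4, the connexins Gja1 and Gjb6, the sodium bicarbonate cotransporter Slc4a4, the sodium pump subunit Atp1b2, the enzymes Glul and Aldh1l1, the receptor Fgfr3, the transcription factor Sox9 and the calcium-binding protein S100b. All 10 were found among the 21995 genes of the deposited count table, and all 10 passed the filter on low counts in both comparisons. Each was measured in RNA-seq libraries of whole spinal cord, 1 library per mouse, from 22 C57BL/6 mice. The aging experiment compared 8 young (3–4 months) with 8 old (18–24 months) wild-type males, with libraries made by the Roche KAPA HyperPrep kit. The ALS experiment compared 3 symptomatic SOD1-G93A mice, which carry a high-copy transgene of mutant human SOD1 and develop motor neuron disease, with 3 wild-type controls. The labels put both ALS groups at 5–6 months, each was made up of 2 females and 1 male, and their libraries were made with the Illumina TruSeq kit. The question asked of these genes was whether their messenger RNA changed with age and with disease, each experiment taken on its own.

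Astrocytes hold the composition of the fluid around neurons within narrow limits. Their processes end on blood vessels in endfeet rich in water channels, they are joined to each other by gap junctions that spread potassium and metabolites, and they take up glutamate and turn it into glutamine for return to neurons. After injury or in disease they become reactive, a state marked by intermediate filaments such as Gfap and Vim. In the spinal cord, astrocytes surround the motor neurons that are lost in ALS. RNA of whole tissue cannot tell a change in the number of cells of a type from a change in the RNA that each of these cells holds.

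Library totals lay between 5.08e+06 and 9.36e+06 counts in the aging experiment and between 9.68e+06 and 1.32e+07 in the ALS experiment. The members were well covered, since the lowest count of any member in any library was 228, for Sox9 in a young mouse. Values are given as CPM, the count of a gene scaled to the depth of its library, with depths adjusted by the trimmed mean of M-values (TMM). The Sod1 row, which checks the transgene labels, lay between 156 and 168 CPM in the 3 control libraries and between 296 and 335 CPM in the 3 SOD1-G93A libraries. Reads were aligned to the mouse genome, so this row is annotated as mouse Sod1 and is no measure of the level of the human transgene. Whether reads of the human transgene were counted in it was not tested, so its difference cannot be assigned to the mouse gene. A pair of libraries stood apart. Old library 6 had a summed level of 2614 CPM over the reactive astrocyte genes, where the other old libraries lay between 3630 and 4625 CPM, and 538 CPM over the microglia markers, where the others lay between 720 and 898 CPM. SOD1-G93A library 2 had a summed reactive level of 8601 CPM against 15503 and 17056 CPM in the other two, and a neuron marker level of 5553 CPM against 3578 and 3174 CPM. The main results below are also given without these libraries.

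Per transcript length, the members spanned a wide range of levels. In young cords, the median log2(FPKM + 1), where FPKM is a read density scaled to transcript length and library depth, was 9.60 for Glul, glutamine synthetase, and 3.41 for Sox9. Glul, Atp1b2 and S100b held the first 3 places in all 4 groups. In every group, Glul and Atp1b2 overlapped in range, so their order was not resolved. S100b lay below both in young and old cords, without overlap, while its range touched that of its neighbour in the control and SOD1-G93A groups. Aldh1l1 and Sox9 held the last places, in that order, in each of the 4 groups, and Sox9 did not overlap Aldh1l1 in any of them. Aqp4 and Gja1, close to each other at 7.01 on this scale in young cords, were level neighbours with overlapping ranges in the young, old and control groups. In SOD1-G93A cords they had come apart, with Aqp4 between 8.10 and 8.54 and Gja1 between 7.10 and 7.66. Levels of the aging and ALS experiments were not compared, because the library kits differed.

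**Figure D1:**
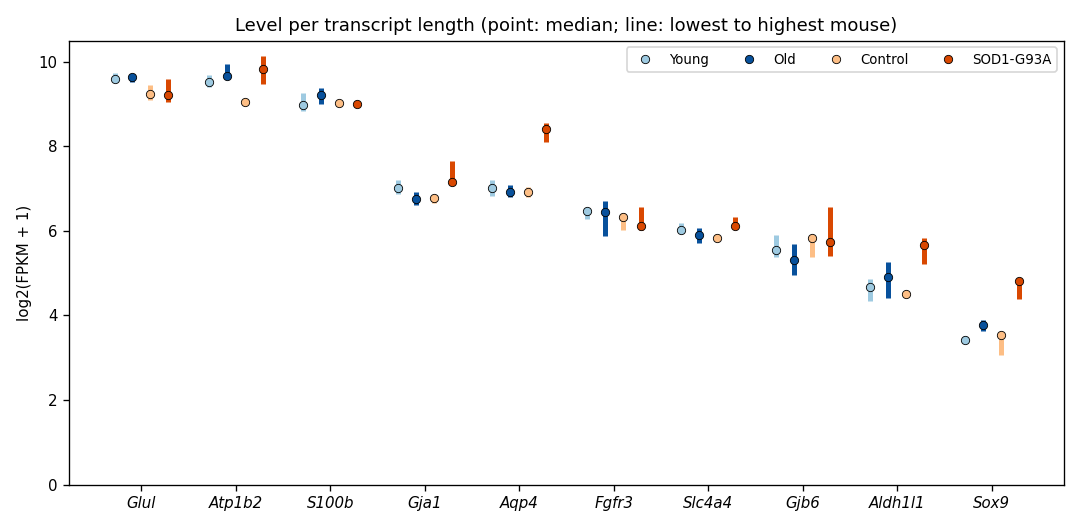
Median log2(FPKM + 1) of each homeostatic astrocyte gene (points) with the lowest and highest mouse (lines) in the 8 young, 8 old, 3 control and 3 SOD1-G93A mice. Glul, Atp1b2 and S100b lie near 9 to 10 in every group, and Aldh1l1 and Sox9 lie lowest. Aqp4 in SOD1-G93A mice stands above that in the controls of the same experiment.

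With age the members that passed the test changed by small amounts and in both directions. Sox9, Aldh1l1 and S100b were higher in old cords, Gja1 and Slc4a4 were lower, and the remaining 5 did not pass the test (edgeR's quasi-likelihood test, Benjamini-Hochberg adjusted over 13647 genes, threshold 0.05). The largest change was that of Sox9, 0.35 on the log2 scale. Thus 3 of 10 members rose, where 13.5% of all genes tested rose, and 2 of 10 fell, where 12.9% of all genes fell. None passed the stricter rule of a log2 fold change beyond 1, which 2.18% of genes met upward and 0.044% downward. The median log2 fold change of the members was 0.019, beside -0.0027 over all genes. Without old library 6 the counts were again 3 higher and 2 lower. At the same time, summed levels of other cell programs differed between the ages. The reactive astrocyte genes summed to 2069–2627 CPM in young and 2614–4625 CPM in old cords, the 10 microglia markers to 340.2–378 and 538–898 CPM, and the 10 neuron markers to 7058–8209 and 5770–8093 CPM. Their part in the members' changes was not tested.

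In SOD1-G93A cords, every member that passed the test was higher. Aqp4, Sox9 and Aldh1l1 were more than doubled, Atp1b2, Gja1 and Slc4a4 rose by smaller amounts, and Gjb6, Glul, Fgfr3 and S100b did not pass the test. Thus 6 of 10 members rose, where 18.4% of the 14386 genes tested rose, and 0 fell, where 15.5% of all genes fell. At an unadjusted p under 0.05 the count lower was also 0, and DESeq2 called 0 lower. Of the 6, 3 passed the stricter rule of a log2 fold change over 1, which 8.5% of genes met. In all 6 every SOD1-G93A library lay above every control library, a pattern that 25.7% of genes showed. The median log2 fold change of the members was 0.42, beside 0.0031 over all genes. Without SOD1-G93A library 2 the count was again 6. It fell to 3 without control library 1 and to 3 without control library 3, the 3 being Aqp4, Sox9 and Aldh1l1. With 3 mice a group, an exact permutation test of a single gene cannot give a two-sided p below 0.1. The same libraries differed strongly in other programs. The reactive astrocyte genes summed to 1759–2613 CPM in controls and 8601–17056 CPM in SOD1-G93A cords, the microglia markers to 351–423 and 1362–2427 CPM, and the neuron markers to 8381–8939.65 and 3174–5553 CPM. None of the microglia and neuron markers was at 0 in any library. The part of these differences in the members' changes was not tested.

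**Figure D2:**
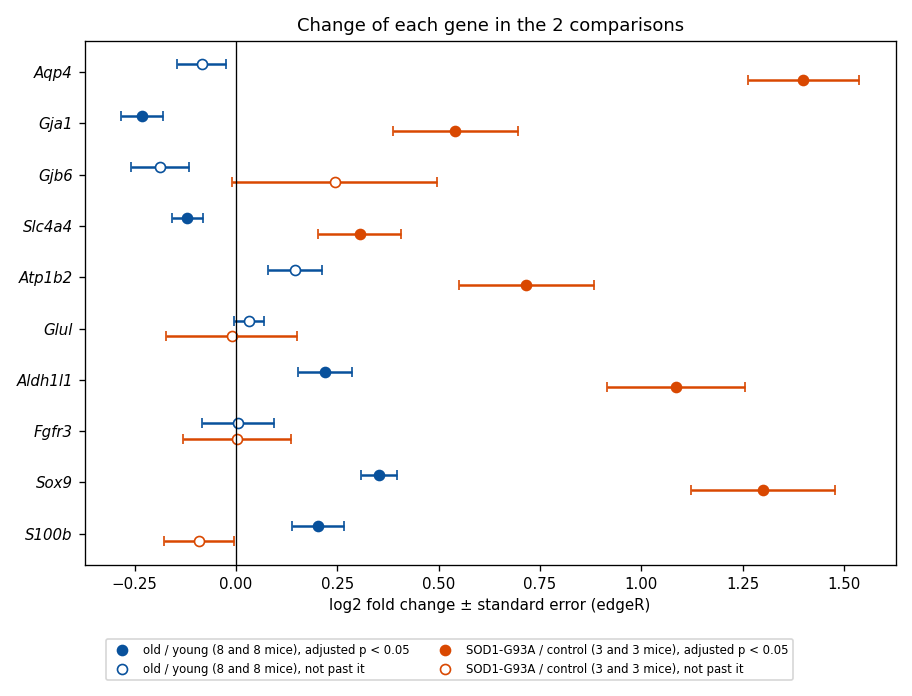
Log2 fold change with its standard error for each member in old against young mice (blue, 8 and 8) and SOD1-G93A against control mice (orange, 3 and 3), with filled points for an adjusted p under 0.05. The aging changes lie between -0.23 and 0.35, and those of Aqp4, Sox9 and Aldh1l1 in SOD1-G93A mice lie above 1.

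Aqp4 encodes aquaporin 4, the water channel of astrocyte endfeet (chromosome 18, 15389496 to 15410982 of GRCm38, minus strand). It ranged from 592 to 811 CPM in young cords with a median of 683 CPM, and from 571 to 741 CPM in old cords with a median of 637 CPM. The groups overlapped over most of their ranges, and the log2 fold change of -0.08 ± 0.060 (SE) did not pass (edgeR, adjusted p = 0.32). In the ALS experiment, Aqp4 stood at 713, 657 and 601 CPM in the 3 controls and at 1989, 1426 and 1783 CPM in the 3 SOD1-G93A mice. Every diseased mouse thus held about double the highest control or more, and the lowest of them was library 2. The log2 fold change was 1.40 ± 0.14 (edgeR, adjusted p = 0.000271), or 2.64-fold, and leaving out any 1 library kept it between 1.29 and 1.53. An antisense gene, AC133525.2, overlaps the Aqp4 locus. Whether the counting used strand is not stated, so reads of such partners cannot be told apart from those of the member.

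Gja1 and Gjb6 encode connexin 43 and connexin 30, which form the gap junction channels between astrocytes. Gja1 (chromosome 10, 56377330 to 56402513, plus strand) was lower in old cords. It ranged from 380.4 to 462 CPM in young mice with a median of 415 CPM, and from 321 to 393 CPM in old mice with a median of 359 CPM. Of the 8 old mice, 7 lay below every young mouse, and 1 overlapped the lowest young values. On the log2 scale the change was -0.23 ± 0.051 (edgeR, adjusted p = 0.00163), or 1.17-fold lower, and the change passed with each library left out in turn. In the ALS experiment the direction was the opposite. Controls held 357, 331 and 361 CPM and SOD1-G93A mice 648, 428 and 448 CPM. The 3 diseased mice lay above the 3 controls, with library 1 far above the other two, and the log2 fold change was 0.54 ± 0.15 (edgeR, adjusted p = 0.0257). It was 0.33 without SOD1-G93A library 1, and the adjusted p was 0.0769, 0.101 and 0.0746 without control library 1, 2 and 3. Without SOD1-G93A library 2 it was 0.65.

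Gjb6 (chromosome 14, 57123303 to 57133611, minus strand) showed less. It ranged from 86.9 to 116 CPM in young and from 70.2 to 99.7 CPM in old mice, with medians of 92.6 and 83.5 CPM. Although 6 of 8 old mice lay below every young mouse, the log2 fold change of -0.19 ± 0.072 missed the threshold (edgeR, adjusted p = 0.0565). Small changes of setting moved it across. It passed with DESeq2 (adjusted p = 0.0438), without the filter on low counts (adjusted p = 0.0495) and without young library 1, 3 or 5 or old library 2 or 4 (adjusted p = 0.0456, 0.0458, 0.0381, 0.0175 and 0.0347). In the disease experiment, controls held 80.9, 103 and 111 CPM and SOD1-G93A mice 171, 79.4 and 98.4 CPM. Only library 1 lay above the controls, and the log2 fold change of 0.24 ± 0.25 (edgeR, adjusted p = 0.488) became -0.14 without it.

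The sequences upstream of Gja1 and Gjb6 are shown because the pair forms the same kind of channel and differed in how firmly it changed, and that of S100b is shown because it was the only one of those searched that held one of the motifs. RefSeq gave sequence upstream of 7 of the 10 members in 9 windows of 250 bases (GRCm38.p6). Aqp4, Sox9 and Atp1b2 had no entry. The windows of Gja1 (chr10:56377050-56377299, plus strand), Gjb6 (chr14:57133612-57133861, minus strand) and S100b (chr10:76253586-76253835, plus strand) follow from 5′ to 3′ on the strand of the gene, with any match to the motifs in capitals.
Gja1: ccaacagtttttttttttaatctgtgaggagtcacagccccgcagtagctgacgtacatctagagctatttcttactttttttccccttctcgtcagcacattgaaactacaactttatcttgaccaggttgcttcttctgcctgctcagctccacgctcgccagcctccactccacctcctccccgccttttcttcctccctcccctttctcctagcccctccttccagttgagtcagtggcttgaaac
Gjb6: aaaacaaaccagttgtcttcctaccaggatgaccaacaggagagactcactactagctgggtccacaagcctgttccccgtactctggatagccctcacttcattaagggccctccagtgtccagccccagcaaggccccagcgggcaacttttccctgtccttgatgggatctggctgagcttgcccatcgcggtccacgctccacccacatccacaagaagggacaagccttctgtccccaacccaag
S100b: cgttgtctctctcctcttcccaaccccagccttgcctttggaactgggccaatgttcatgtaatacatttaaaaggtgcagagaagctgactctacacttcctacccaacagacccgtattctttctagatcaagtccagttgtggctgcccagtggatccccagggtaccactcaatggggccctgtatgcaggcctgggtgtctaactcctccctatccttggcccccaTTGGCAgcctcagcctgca
The 9 windows were searched on both strands for 4 short motifs. The nuclear factor I motif TTGGCA was present in S100b and in no other window, beside 12.3% of 32851 promoters of the same length. The SOX motif ACAAAG, which 16.5% of promoters hold, was in none. The STAT motif TTCNNNGAA, found in 7.02% of promoters, was likewise in none. The TATA box, TATAAA, present in 12.4%, was in none either.

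**Figure D3:**
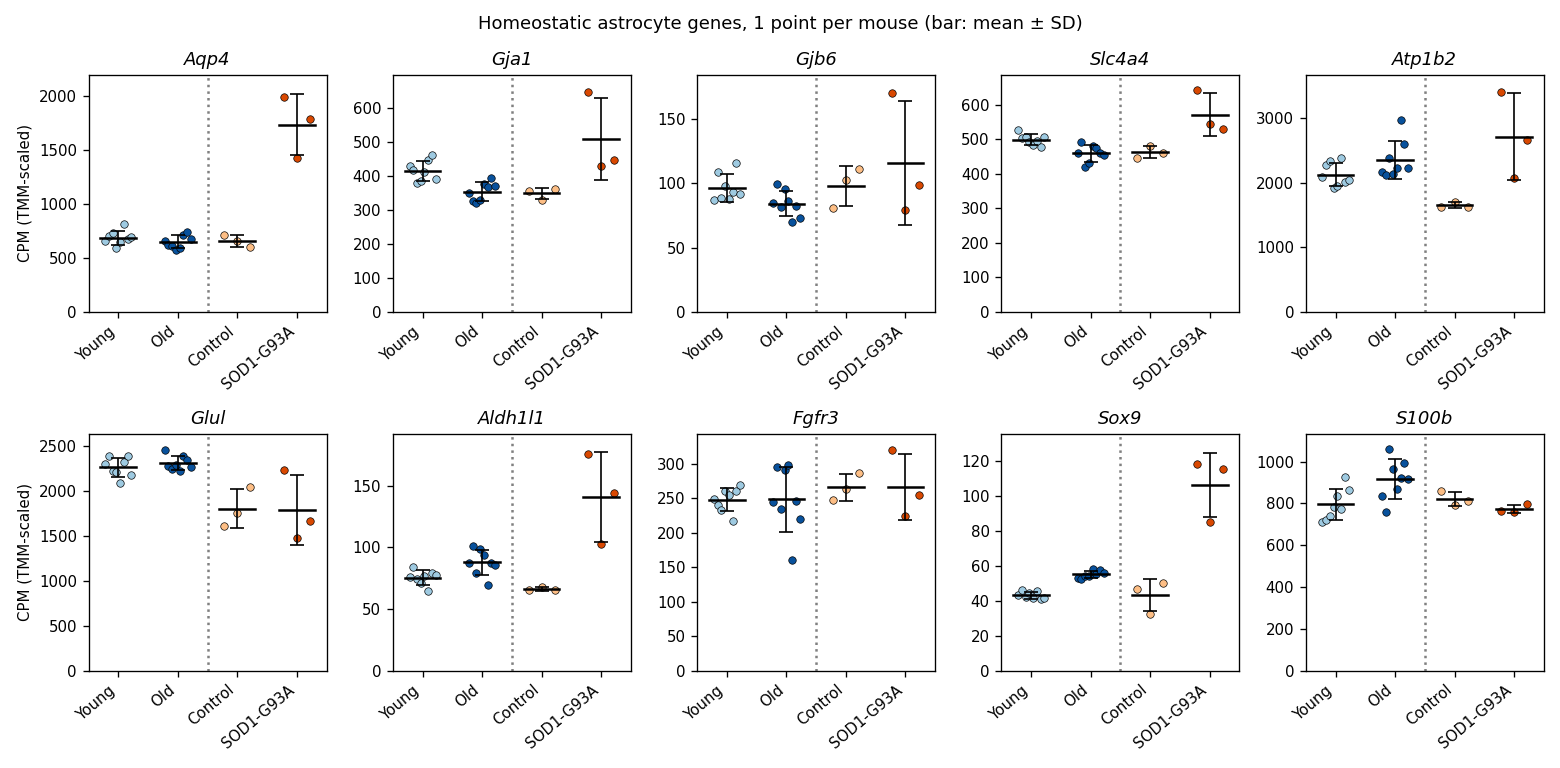
TMM-scaled CPM of the 10 members in each mouse (points) with the group mean and SD, for the aging experiment (left of each dotted line) and the ALS experiment (right of it). The 8 old mice lie above the 8 young mice for Sox9, and the 3 SOD1-G93A mice lie above the 3 controls for Aqp4, Gja1, Slc4a4, Atp1b2, Aldh1l1 and Sox9.

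Slc4a4 encodes the electrogenic sodium bicarbonate cotransporter, through which astrocytes buffer extracellular pH (chromosome 5, 88886818 to 89239653, plus strand). It ranged from 479 to 527 CPM in young cords with a median of 499.9 CPM, and from 420.0 to 492 CPM in old cords with a median of 461 CPM. A total of 6 old mice lay below every young mouse. The change was -0.12 ± 0.038 on the log2 scale (edgeR, adjusted p = 0.0224), the smallest change among the members that passed. It did not pass without young library 1 or old library 4 (adjusted p = 0.0510 and 0.0513). Controls of the ALS experiment held 446, 482 and 460.4 CPM and SOD1-G93A mice 643, 543 and 529 CPM. The groups did not overlap, but the log2 fold change of 0.31 ± 0.10 lay close to the threshold (edgeR, adjusted p = 0.0473). It did not pass without control library 1, 2 or 3 (adjusted p = 0.161, 0.108 and 0.136) or without SOD1-G93A library 1 or 3 (adjusted p = 0.122 and 0.0702), and it passed without library 2 (adjusted p = 0.0116).

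Atp1b2 encodes the beta 2 subunit of the sodium pump, which is also known as an adhesion molecule on glia (chromosome 11, 69599736 to 69605942, minus strand). Young mice ranged from 1927 to 2388 CPM with a median of 2066 CPM, and old mice from 2119 to 2981 CPM with a median of 2231 CPM. The highest value was that of old library 6. A log2 fold change of 0.15 ± 0.066 did not pass (edgeR, adjusted p = 0.106) and was 0.09 without that library. Controls of the ALS experiment held 1630.2, 1710.2 and 1621 CPM and SOD1-G93A mice 3412, 2072 and 2668 CPM. Every diseased mouse lay above the controls, which were close to each other, while the diseased mice differed widely. This gave a log2 fold change of 0.72 ± 0.17 (edgeR, adjusted p = 0.0116). Leaving out any 1 library gave values between 0.53 and 0.88, the highest without SOD1-G93A library 2. The change did not pass without control library 1 or 3 (edgeR, adjusted p = 0.0515 and 0.0537).

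Aldh1l1 encodes a dehydrogenase of folate metabolism that is used as a marker of astrocytes in general (chromosome 6, 90486427 to 90600203, plus strand). Young mice ranged from 64.9 to 84.3 CPM with a median of 76.3 CPM, and old mice from 69.3 to 101 CPM with a median of 87.2 CPM. A total of 6 old mice lay above every young mouse, and the lowest old value was that of library 6. With age the gene rose by 0.22 ± 0.066 on the log2 scale (edgeR, adjusted p = 0.0170). Leaving out any 1 library gave values between 0.18 and 0.26, the highest without old library 6. In the ALS experiment, controls held 65.1, 68.1 and 65.7 CPM and SOD1-G93A mice 176, 103 and 144 CPM. The controls were nearly equal, and the lowest diseased mouse stood well above them. The log2 fold change was 1.09 ± 0.17 (edgeR, adjusted p = 0.00243), or 2.12-fold, with a range of 0.90 to 1.27 over the fits that drop 1 library. A few noncoding genes overlap the long Aldh1l1 locus, among them the antisense gene Gm15756.

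Glul, the glutamine synthetase gene (chromosome 1, 153899944 to 153909723, plus strand), was the most abundant member per length in young cords, beside Atp1b2, and passed the test in neither comparison. It ranged from 2096 to 2392 CPM in young and from 2231 to 2464 CPM in old cords, with medians of 2266 and 2291 CPM. The log2 fold change was 0.033 ± 0.037 (edgeR, adjusted p = 0.558). Control mice of the other experiment held 1616, 1757 and 2046 CPM and SOD1-G93A mice 2233, 1480.1 and 1665 CPM. The groups interleaved, and the log2 fold change of -0.011 ± 0.16 (edgeR, adjusted p = 0.966) turned positive, to 0.11, without library 2. The protein-coding gene Teddm2 lies on the other strand of the same locus.

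Fgfr3 encodes a fibroblast growth factor receptor found on astrocytes and their precursors (chromosome 5, 33721674 to 33737068, plus strand). It ranged from 217 to 269 CPM in young mice with a median of 252 CPM. Old mice spread wider, from 159.9 CPM in library 6 to 299 CPM, with a median of 245 CPM. The group means were 248 ± 17.0 and 249 ± 46.8 CPM (SD, n = 8 each), so the means lay close together while the old mice varied more among themselves. Its log2 fold change was 0.0052 ± 0.089 (edgeR, adjusted p = 0.975), and 0.077 without library 6. In the ALS experiment, controls held 247, 264 and 287 CPM and SOD1-G93A mice 319.8, 225 and 256 CPM, again interleaved, with a log2 fold change of 0.0034 ± 0.13 (edgeR, adjusted p = 0.988).

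Sox9 encodes a transcription factor of astrocyte identity (chromosome 11, 112782224 to 112787760, plus strand) and had the clearest change with age. Young mice ranged from 40.8 to 46.1 CPM with a median of 42.8 CPM, and old mice from 52.6 to 58.5 CPM with a median of 54.9 CPM. The groups did not overlap, a pattern that 3.66% of all genes showed in this direction and no other member showed. The means were 43.2 ± 2.01 and 55.2 ± 2.13 CPM (SD, n = 8 each), and the log2 fold change was 0.35 ± 0.044 (edgeR, adjusted p = 2.53e-06), or 1.28-fold. An exact two-sided permutation test gave p = 0.000155, the smallest that 8 against 8 mice allow. Among the controls of the ALS experiment it stood at 46.9, 32.7 and 50.0 CPM and among SOD1-G93A mice at 119, 85.1 and 115 CPM. The groups stood far apart, and the lowest diseased mouse was again library 2. The log2 fold change was 1.30 ± 0.18 (edgeR, adjusted p = 0.00127), or 2.46-fold. Leaving out any 1 library kept it between 1.13 and 1.44, the highest without SOD1-G93A library 2.

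S100b encodes a calcium-binding protein of astrocytes that oligodendrocytes also express (chromosome 10, 76253853 to 76261159, plus strand). It ranged from 712 to 928 CPM in young cords with a median of 779 CPM, and from 758 to 1063 CPM in old cords with a median of 919 CPM. The groups overlapped, with 3 old mice above every young mouse. With age it rose by 0.20 ± 0.064 on the log2 scale (edgeR, adjusted p = 0.0206), and it did not pass without young library 2 (adjusted p = 0.0510). In the ALS experiment, controls held 859, 795 and 814 CPM and SOD1-G93A mice 764, 759 and 795 CPM. All 6 mice lay close together, and the log2 fold change of -0.09 ± 0.086 did not pass (edgeR, adjusted p = 0.45). The gene Dip2a overlaps S100b on the other strand and is also counted.

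The difference between the 2 experiments was tested directly, as the SOD1-G93A change minus the aging change in one edgeR fit of all 22 libraries (14502 genes tested). It was positive and past the threshold for Aqp4, Gja1, Slc4a4, Atp1b2, Aldh1l1 and Sox9, 6 of 10 members where 11.6% of all genes were. It was negative and past it for S100b alone, 1 of 10 where 14.2% of all genes were, and S100b did not pass with any of the 6 ALS libraries left out. The difference was largest for Aqp4, at 1.46 ± 0.13 on the log2 scale, and 0.92 ± 0.13 for Sox9. Gja1 and Slc4a4 were the members that passed in opposite directions, lower with age and higher in SOD1-G93A cords, with differences of 0.74 ± 0.13 and 0.40 ± 0.085 (adjusted p = 0.000194 and 0.00108). Age of the mice, their sex, the library kit and the experiment all differ between the comparisons and cannot be told apart in this difference.

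Variation among the members from mouse to mouse was examined pair by pair. Deviations of log2 CPM from the group mean were correlated over the 16 mice of the aging experiment for all 45 pairs of members. The median Pearson r was -0.0011, and 22 of 45 pairs were positive, while with library totals in place of TMM factors the median was 0.15 and 30 pairs were positive. Aldh1l1 and Fgfr3 varied together (r = 0.84, Spearman's rho = 0.79, permutation p = 0.00040 and 0.00132, adjusted over the 45 pairs 0.00930 and 0.0396), as did Aqp4 and Atp1b2 (r = 0.76, rho = 0.75, permutation p = 0.00062 and 0.00176, adjusted 0.00930 and 0.0396). Without the 2 mice farthest from the median in the first gene of the pair (Aldh1l1 or Aqp4), r was 0.65 and 0.73. Within young and old mice it was 0.50 and 0.95 for the first pair and 0.87 and 0.71 for the second. Of the other pairs, 5 had a Pearson p past the threshold after adjustment but not a Spearman p. The largest in size was Atp1b2 with Fgfr3 (r = -0.80, rho = -0.69, permutation p = 0.00108 and 0.00716, adjusted 0.0121 and 0.0665). Its r fell to -0.52 without the 2 mice farthest from the median in Atp1b2. With library totals, 4 pairs passed by Pearson r and 0 by both measures. The members come from the same libraries, so their values share depth and scaling. Old library 6 had the lowest TMM factor of the 16 mice, 0.92, and its 10 most abundant genes held 15.1% of its counts. It was lowest of the old mice for Aldh1l1 and Fgfr3 and highest for Atp1b2. Its part in these pairs was not tested. The 5 other genes with deviations most like the mean of the members' were Gm45234 (r = 0.80), Snrpa (0.77), Tyw1 (0.77), Smox (0.75) and Abca9 (0.75), over the same 16 mice. They are the top of a ranking of all other genes tested, and no test was made of their r. A ranking of so many genes over 16 mice gives high values at its top in any case, so they are a description only.

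Lists of further astrocyte genes, grouped by function and chosen with earlier results of these data known, show the surroundings of the members. In old cords most of their genes did not pass the test, and those that did went both ways. Beside the counts below, 13.5% of all genes tested rose and 12.9% fell. Of 15 transporters and channels, 2 rose and 4 fell. Kcnj10, the inward rectifier potassium channel Kir4.1, fell from 1148 to 966 CPM (log2 fold change -0.25, edgeR adjusted p = 0.00136). Of 14 endfoot and adhesion proteins, 3 rose and 4 fell, among them Mlc1, an endfoot membrane protein, upward (0.25) and the matrix proteoglycans Ncan and Bcan downward (-0.34 and -0.21). Only 1 of 15 metabolic enzymes passed, Acsbg1, upward (0.15). Of 15 receptors and signalling genes, 1 rose and 4 fell, among the latter the glutamate receptors Grm3 and Grm5 (-0.42 and -0.34). Of 12 tested transcription factors, 2 fell, Nfia and Rorb (-0.25 and -0.20), and 0 rose by edgeR, by DESeq2 or at an unadjusted p under 0.05. Their median log2 fold changes lay between -0.089 for the transporters and 0.052 for the enzymes. In contrast, 16 of 17 reactive astrocyte genes rose, with a median of 1.16. Among them, Timp1 was low in young cords (0.33 CPM) and passed the filter on low counts through the old libraries. Vim, the intermediate filament vimentin, rose from 60.1 to 293 CPM.

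The same lists were counted in SOD1-G93A cords, where 18.4% of all genes tested rose and 15.5% fell. Of the 15 transporters and channels, 4 rose and 4 fell. The D-serine and neutral amino acid carrier Slc7a10 fell from 99.8 to 45.3 CPM (log2 fold change -1.14, edgeR adjusted p = 0.000762). The GABA transporter Slc6a11 fell by 0.97 and the glycine transporter Slc6a9 fell by 0.44, while the glutamate transporter Slc1a3 (GLAST) rose by 0.62. Of 14 endfoot and adhesion proteins, 8 rose and 3 fell. Mlc1 rose from 189 to 419 CPM (1.15, adjusted p = 0.000986) and F3, tissue factor, by 1.21, while the claudin Cldn10 fell by 0.86 and Bcan fell by 0.51. Of 15 metabolic enzymes, 5 rose, among them Ndrg2 and Plpp3 (0.61 and 0.57), and Fbxo2 fell by 0.53. Of 15 receptors and signalling genes, 8 rose and 2 fell, and the endothelin receptor Ednrb rose by 0.76. Of 12 transcription factors, 5 rose, among them Sox2, Id4 and Rfx4 (0.81, 0.68 and 0.69), and Gli1, a target of hedgehog signalling, fell by 1.70, from 7.92 to 2.46 CPM. The medians lay between -0.026 for the transporters and 0.56 for the receptors. All 18 reactive genes rose, with a median of 2.89. Some of them, at control means as low as 0.35 CPM, passed the filter on low counts only through the SOD1-G93A libraries.

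**Figure D4:**
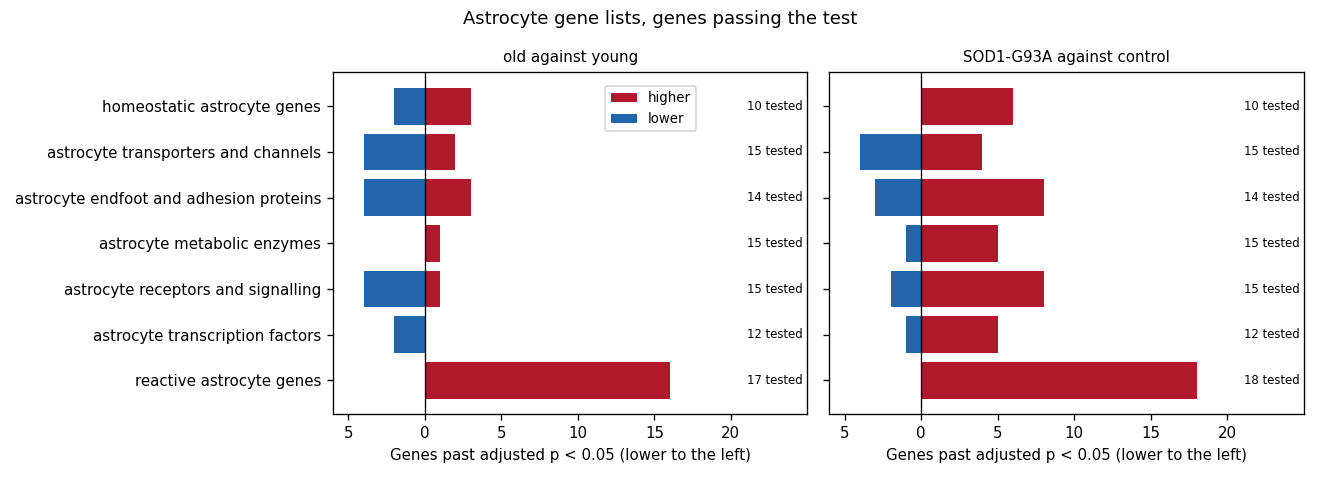
Number of genes of each astrocyte list past an adjusted p of 0.05, higher to the right (red) and lower to the left (blue), in old against young mice (left panel) and SOD1-G93A against control mice (right panel). The homeostatic genes have 3 higher and 2 lower with age and 6 upward and 0 downward in SOD1-G93A mice, and the reactive genes have 16 and 18 higher. Over all genes tested, 13.5% were higher and 12.9% lower with age, and 18.4% and 15.5% in SOD1-G93A mice.

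The summed level of the 10 members was 6867–7664 CPM in young and 7146–8209 CPM in old mice. It was 6059.6–6416 CPM in controls and 7200–10475 CPM in SOD1-G93A mice. These sums are led by Glul and Atp1b2. The lowest of the diseased mice was library 2 and the highest library 1, an order that was the same for the reactive genes and the microglia markers and the reverse for the neuron markers. Over all genes tested, 18.4% were higher and 15.5% lower in SOD1-G93A mice, and 13.5% and 12.9% with age. Of 10 oligodendrocyte markers, edgeR called 1 higher and 1 lower in SOD1-G93A mice, and DESeq2 called 1 higher and 3 lower. At an unadjusted p under 0.05, 1 was higher and 3 were lower. Cldn11 rose by 0.71 on the log2 scale and Ugt8a fell by 0.82. Of 6 endothelial markers, 0 passed by edgeR or DESeq2, and 2 were lower at an unadjusted p under 0.05. With age, 1 of 10 oligodendrocyte markers rose and 5 fell. Of 5 precursor markers, 1 was lower in old mice and 3 were higher in SOD1-G93A mice. The 4 ependymal markers tested were all higher in SOD1-G93A mice by edgeR, and DESeq2 called 3. Among the 4, Dynlrb2 and Ccdc153 were low in controls (0.34 and 0.87 CPM). They passed the filter on low counts through the SOD1-G93A libraries. With age 0 of the 4 passed by edgeR or DESeq2, and 2 were higher at an unadjusted p under 0.05. Of the Schwann cell and meningeal markers, 0 of 3 tested passed with age by edgeR or DESeq2 (1 at an unadjusted p under 0.05). In SOD1-G93A mice, 1 of 4 tested was higher by edgeR and 2 by DESeq2, and 3 were higher at an unadjusted p under 0.05. The part of these cells in the members' changes was not tested.

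**Figure D5:**
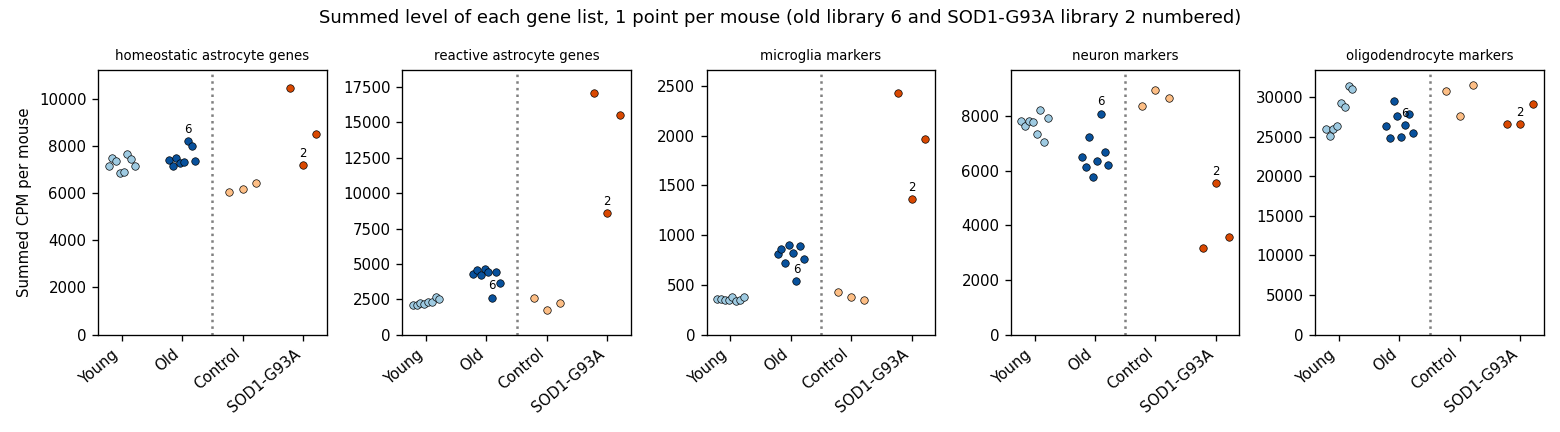
Summed CPM of the homeostatic astrocyte genes, the reactive astrocyte genes and the microglia, neuron and oligodendrocyte markers in each mouse, with old library 6 and SOD1-G93A library 2 numbered. Old library 6 sits lowest among the old mice for reactive and microglia genes, and SOD1-G93A library 2 sits lowest of the 3 diseased mice for the homeostatic, reactive and microglia genes.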

How the data were processed

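RNA of whole spinal cords from 22 mice was sequenced, and the authors aligned the reads with STAR to the mm10 mouse genome and quantified genes of Ensembl 88 with RSEM (SAMtools 1.3 is also named in the submitters' processing notes). The authors deposited RSEM expected counts, not normalized between libraries and here already whole numbers, and in a separate table log2 values of FPKM plus a pseudocount of 1. All 22 columns of each table were used. The columns name groups but carry no replicate numbers, so libraries are numbered by column order as names only. No 2 libraries of a group held identical values.

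The comparisons were fitted separately. Low genes were removed with filterByExpr of edgeR (minimum count 10, minimum total 15), libraries were scaled by TMM and genes were tested with edgeR's quasi-likelihood test, Benjamini-Hochberg adjusted over all genes tested. DESeq2 1.42.0, edgeR 4.0.16 and limma 3.58.1 in R 4.3.3 and SciPy 1.17.1 in Python 3.11.15 were used, and the procedure was tested on simulated data. Pairs were tested with 100000 permutations within groups. Alternatives were DESeq2, RLE factors, library totals, other filters, one fit of all groups, limma on the log2 values, a log2 fold change beyond 1 and leaving out each library. Coordinates are from GENCODE M21 (GRCm38).

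The members and the 13 other lists (152 genes in all, with the members) were chosen with earlier results of these data known. All members are named, with at most 4 genes of each other list per comparison, those with the smallest adjusted p, and the 5 genes most like the members. A gene that met this rule is not reported here.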

Additional observations from a re-analysis of the deposited data

Results flagged for a closer look

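The change in SOD1-G93A mice differed from the change with age, by the direct test of the difference in one edgeR fit, for 7 of the 10 homeostatic astrocyte genes, 6 of them positive, where 11.6% of all genes were, and 1 negative, where 14.2% were. On the log2 scale, as the SOD1-G93A change minus the aging change, the difference was 1.46 for Aqp4, 0.92 for Sox9, 0.84 for Aldh1l1, 0.74 for Gja1, 0.54 for Atp1b2, 0.40 for Slc4a4 and -0.32 for S100b. The edgeR adjusted p was 1.5e-07, 3.16e-05, 0.000344, 0.000194, 0.0111, 0.00108 and 0.0493 in that order. Atp1b2 stood at 0.35 without SOD1-G93A library 1 and no longer passed (adjusted p = 0.0928). S100b no longer passed with any 1 of the 6 ALS libraries left out (adjusted p between 0.0567 and 0.117). Gjb6, which did not pass (0.41, adjusted p = 0.164), did so without SOD1-G93A library 2 (0.60, adjusted p = 0.0155) and stood at 0.024 without library 1 (adjusted p = 0.945). Of the 20 gene and age groups of 8 mice examined for a single mouse far from the rest, 0 held one.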

How the results depend on the processing

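Aqp4, Sox9 and Aldh1l1 in SOD1-G93A mice and Sox9 and Gja1 with age kept their direction and passed under every alternative run, except that no member passed a log2 fold change beyond 1 with age. With age, the count of members higher was 2 to 3 and the count lower 2 to 3 with each library left out. The count lower was 1 with limma, and both counts were 0 with a log2 fold change beyond 1. With limma, Slc4a4, S100b and Aldh1l1 did not pass (adjusted p = 0.0581, 0.0622 and 0.105) and Atp1b2 did (0.0471), and with one fit of all groups Aldh1l1 did not (0.0629). In SOD1-G93A mice, the count higher was 3 to 6 with each library left out and 3 with a log2 fold change beyond 1, and Slc4a4 did not pass without a filter (0.0597). For the difference between the comparisons, the count positive was 5 to 7 and the count negative 0 to 0 with each ALS library left out, and with RLE factors the count negative was 0. Of the pairs, 4 passed with library totals, where 7 passed with TMM. Library totals raised the share of higher calls over all genes in the ALS comparison from 54.2% to 63.0%.

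Changes of sign were seen in 3 genes, in values that had not passed the test. For Fgfr3 with age, the log2 fold change was -0.0033 without a filter, -0.016 with limma and -0.040 to 0.077 with each library left out. For Fgfr3 in SOD1-G93A mice it was -0.0015 with DESeq2 and with RLE factors, -0.0037 without a filter, -0.025 in one fit, -0.022 with limma and -0.14 to 0.12 with each library left out. For Glul in SOD1-G93A mice it was 0.029 with library totals, 0.0010 with at least 10 counts in every library, 0.021 with limma and -0.19 to 0.11 with each library left out, and for Gjb6 -0.14 to 0.46. The difference between the comparisons ranged from -0.25 to 0.037 for Glul and from -0.17 to 0.068 for Fgfr3. The cause was not tested. No paired analysis was possible because the columns carry no replicate numbers.

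Standard errors of the members lay between 0.037 and 0.089 on the log2 scale with age and between 0.086 and 0.25 in the ALS experiment. Differences of this size could not be resolved, and larger ones could also fail to pass. With age, Gjb6 at -0.19 ± 0.072 and Atp1b2 at 0.15 ± 0.066 did not pass.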
